A study of Mus musculus with 24 samples.

Results

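Embryoid bodies of Prmt1 knockdown cells that had spent 12 h with the vehicle DMSO were compared with untreated embryoid bodies of the same cells at day 4. The arrays were chosen by their titles: 3 of siPRMT1 with DMSO and 3 of siPRMT1 at day 4, or 6 of the 24 arrays of the series, and all 19938 genes with a probe set of their own entered the comparison. The cells, of the mouse embryonic stem cell line D3, carried either a knockdown of the arginine methyltransferase gene Prmt1 (siPRMT1) or a scrambled sequence (siSCR). Before the experiments they had been passaged on gelatin to remove feeder cells. Embryoid bodies, which formed in bacteriological dishes without the cytokine LIF, were left untreated or received DMSO or all-trans retinoic acid (ATRA, 5 micromol) for 12 h. All siPRMT1 groups carry the knockdown, so the comparison shows nothing of the knockdown itself. Sample names place the treatment after day 4, while the treatment protocol places it within the 4 days and the cell type label gives 4 days as the age of the DMSO group. The DMSO embryoid bodies may thus have been older, and no untreated siPRMT1 embryoid bodies of that later age are among the samples used here. DMSO and further culture time cannot be told apart. The labels call the 3 arrays of a group biological replicates, and nothing else says that they came from separate cultures. The p-values of the fit thus rest on the spread between arrays within groups, pooled over all 24 arrays.

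Embryoid bodies that form without LIF sort themselves into an outer layer of extraembryonic, or visceral, endoderm and an inner epiblast. Visceral endoderm is known for taking up and secreting nutrients, and it makes carrier proteins and apolipoproteins that fetal liver makes later. Its anterior part secretes antagonists of Nodal, BMP and Wnt, which in the embryo limit the primitive streak. DMSO is the usual solvent of retinoic acid and at high doses is known to alter differentiation by itself.

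The comparison gave a small number of changes, most of them below 1.5-fold. Of 19938 genes 92 were called (0.461%), which means an adjusted p under 0.05 in limma's fit of all 24 arrays. With DMSO 61 genes were higher (0.306%) and 31 lower (0.155%). The largest rise was 1.43 on the log2 scale and the largest fall -0.62, with medians of 0.46 over the called rises and -0.31 over the called falls. At least 1.5-fold changes were called for 13 rises and 1 fall. At least 2-fold changes were called for 2 genes, Rbp4 and Cer1, both higher. Below, signed values are log2 fold changes, DMSO minus day 4, each ± its standard error from limma (3 arrays against 3), and unsigned array values are log2 expression. In all 92 called genes the 3 DMSO arrays lay on one side of the 3 day 4 arrays, as they did in 24.4% of all genes (10% higher, 14.4% lower). Where arrays of a called gene are described below as apart, this adds no support to its call. At an unadjusted p under 0.05, a level also given for the gene lists, 618 genes (3.1%) were higher and 998 (5.01%) lower. Arrays of different groups were almost as alike as arrays of 1 group: correlations over genes were 0.998 to 0.9986 within day 4, 0.9979 to 0.9988 within DMSO and 0.9968 to 0.998 between them.

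The number of calls moved with the arrays and settings of the fit. Leaving out each of the 6 arrays compared in turn gave 29 to 36 called genes (29 without DMSO replicate 3, 36 without day 4 replicate 2), and 23 of the 92 genes were called in all 6 of these fits, 20 higher and 3 lower. The share of rises among the calls was 66.3%. It was 76.5% after quantile normalization, 82.4% after median centring and 89.3% after scaling to a common SD as well. Dropping the DMSO and ATRA arrays of siSCR, 6 arrays that scatter more, gave 286 called genes with 51% higher. With array weights 2536 genes were called and 31.6% of them were higher, so most calls were then falls.

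Prmt1 itself was measured at 10.35, 10.29 and 10.26 on the day 4 arrays and at 10.38, 10.45 and 10.41 on the DMSO arrays. The DMSO arrays were the higher ones without overlap, by +0.12 ± 0.0612, but the gene was not called (limma adjusted p = 0.672, two-sided exact permutation p = 0.1, the smallest that 3 against 3 arrays allow). In siSCR Prmt1 read 10.849 to 11.018 at day 4 and 11.498 to 11.577 with DMSO, above every siPRMT1 array of these states. There the same contrast was +0.60, and the difference between the lines was -0.48 (adjusted p = 0.000104). Of the 11 measured members of the list of arginine methyltransferases and their partners, only Btg1, an antiproliferative cofactor that binds PRMT1, was called, at +0.22 ± 0.0454 (adjusted p = 0.0307), and it was called in 0 of the 6 fits that leave out an array. The list had a median of 0.035, against -0.002 over all genes, of which 0.306% were called higher and 0.155% lower.

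The markers of the labelled states were present. The 5 markers of undifferentiated cells (Pou5f1, Nanog, Sox2, Zfp42 and Esrrb) averaged 12.61 to 12.65 in undifferentiated siPRMT1 cells, 12.45 to 12.48 at day 4 and 12.36 to 12.38 with DMSO. The 3 epiblast markers Fgf5, Otx2 and Pou3f1 averaged 7.93 to 8.16, 10.18 to 10.26 and 10.49 to 10.56 in the same order, and the 6 endoderm markers 8.33 to 8.62, 9.94 to 10.06 and 10.32 to 10.36. For these 3 sets the DMSO arrays lay apart from the day 4 arrays, and 2 endoderm markers, Afp and Ttr, passed the test. The endoderm markers Gata6 (+0.05), Gata4 (+0.17), Sox17 (+0.15) and Foxa2 (+0.03) did not. Of 3 primitive streak markers 2 were measured, Mixl1 and Eomes. They averaged 8.37 to 8.39 in undifferentiated cells, 9.04 to 9.2 at day 4 and 9.16 to 9.26 with DMSO. Day 4 and DMSO thus overlapped there, and neither gene was called. The 8 markers of fibroblasts or feeder cells averaged 7.44 to 7.46 at day 4 and 7.37 to 7.43 with DMSO, below the 8.49 to 8.54 of undifferentiated cells, and 0 of them was called by limma. The feeder means were thus apart too, lower with DMSO. The 4 neuron markers averaged 7.22 to 7.32 at day 4 and 7.34 to 7.45 with DMSO, also apart and higher with DMSO. The 4 blood or vessel markers averaged 7.38 to 7.49 and 7.43 to 7.52, and the 3 trophectoderm markers measured 6.85 to 6.91 and 6.90 to 6.98, both with overlap. Limma called 0 markers of these 3 sets, and the part of other cell types in the results was not tested. In whole embryoid bodies more cells of a type and more RNA per cell cannot be told apart.

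Genes of visceral endoderm products held the largest rise. Of 25 measured members 6 were higher and 0 lower (limma; 14 and 0 at an unadjusted p under 0.05, where all genes gave 3.1% and 5.01%), with a list median of 0.189 against -0.002 over all genes. Rbp4, the carrier of retinol in plasma, read 8.19, 7.82 and 7.88 at day 4 and 9.45, 9.43 and 9.32 with DMSO. Its DMSO arrays all lay more than 1 log2 unit above the highest day 4 array. That was a rise of 1.43 ± 0.125, or 2.70-fold (adjusted p = 5.81e-06), and it remained between 1.36 and 1.55 whichever of the 6 arrays was left out.

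Afp, which encodes the fetal plasma protein alpha-fetoprotein, read 7.13, 7.14 and 6.99 at day 4 and 8.11, 7.96 and 7.82 with DMSO, without overlap. It rose by 0.88 ± 0.146, or 1.84-fold (adjusted p = 0.00517), and missed the threshold only without DMSO replicate 1 (adjusted p = 0.0511). Apoa4 and Apoa1, both apolipoprotein genes, rose as well. Apoa4 went from 8.91, 8.96 and 8.90 to 9.74, 9.76 and 9.61, a rise of 0.78 ± 0.104 (adjusted p = 0.000605). Apoa1, whose product is the main protein of high-density lipoprotein, went from 10.91, 10.93 and 10.76 to 11.47, 11.54 and 11.46, a rise of 0.63 ± 0.0821 (adjusted p = 0.000605). Both groups of arrays were apart in both genes, and both calls were kept in all 6 fits that leave out an array.

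Ttr, the thyroid hormone carrier that also binds the RBP4 protein, read 11.32, 11.30 and 11.22 at day 4 and 11.90, 11.90 and 11.93 with DMSO, a rise of 0.63 ± 0.115 (adjusted p = 0.0124). Apob, the structural protein of the large lipoproteins, rose by 0.61 ± 0.114 (adjusted p = 0.016). Both sets of arrays were apart, but the Ttr and Apob calls were each kept in 1 of the 6 fits that leave out an array, with adjusted p up to 0.0755 and 0.108. Among the members not called, Ctsh (a lysosomal cathepsin) stood at +0.41 ± 0.125 and Apom at +0.40 ± 0.103, while the uptake receptors Lrp2 and Cubn, the fibrinogen chain gene Fgg and albumin (Alb) lay between -0.04 and +0.02. These 6 were chosen after their values were seen. The list held 3 to 5 called members with any 1 of the 6 arrays left out, the fewest without DMSO replicate 1. The mean level over the list was 9.206 to 9.267 at day 4, 9.541 to 9.562 with DMSO and 9.327 to 9.356 with ATRA.

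**Figure D1:**
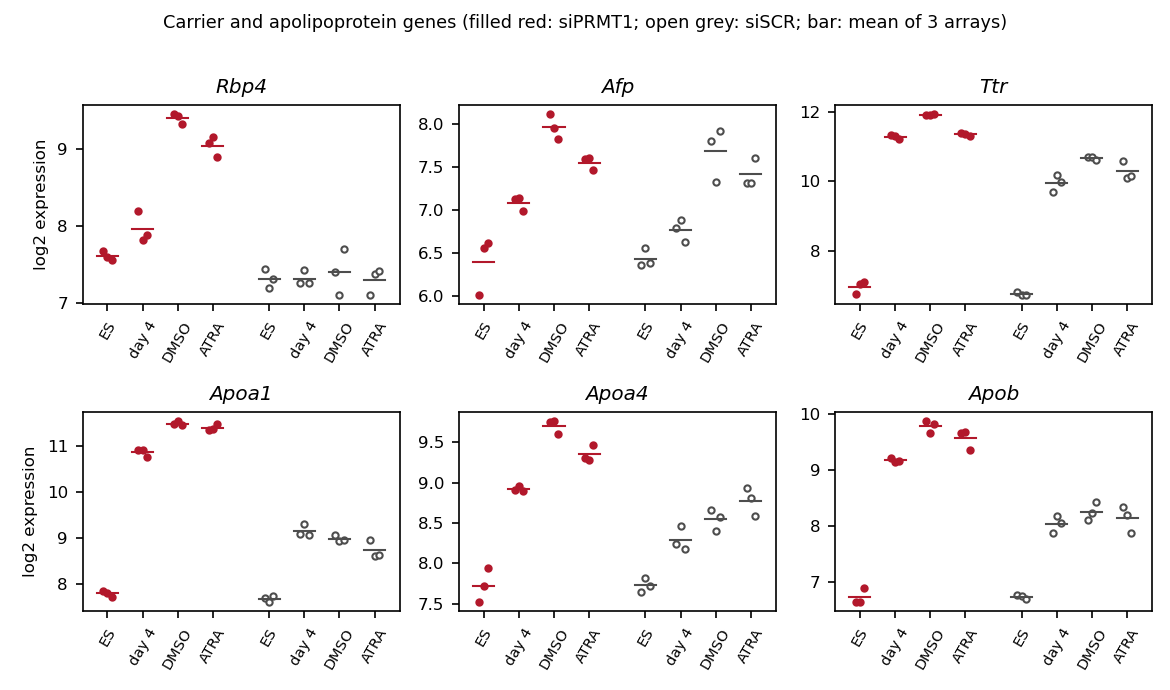
Log2 expression of 6 carrier and apolipoprotein genes on all 24 arrays, by state; filled points are siPRMT1, open points siSCR, and the bar is the mean of 3 arrays. In siPRMT1 the 3 DMSO points lie above the 3 day 4 points in every panel, and all 92 called genes had their arrays apart. In siSCR Rbp4 lies between 7.098 and 7.705 in all states.

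Promoter sequence was read for the called genes of this group, which were all higher in this contrast of siPRMT1. It came from RefSeq windows of mouse GRCm38.p6 that run from 250 bases before to 50 after a gene's start. Windows were found for 5 of the 6 called products (Rbp4, Afp, Apoa4, Apoa1 and Apob) and for 51 of the 61 genes called higher. The letters TGTTTAC or TGTTTGC, which forkhead factors of the FOXA family can bind, were searched on both strands. They occur in 8.48% of all 32851 windows and in at least 1 window of 9.47% of 27025 genes. They occur in 4 of the 5 products (all but Apoa4), in 10 of the 51 genes called higher (19.6%) and in 1 of the 22 genes called lower that have a window (4.55%). Cer1, described next, also holds them. The 4 windows below are shown because they carry these letters, in capitals, on the strand of the gene; in Afp a TATAAA and a GTTAAT are in capitals too.
Rbp4 (chr19:38125272-38125571, minus strand): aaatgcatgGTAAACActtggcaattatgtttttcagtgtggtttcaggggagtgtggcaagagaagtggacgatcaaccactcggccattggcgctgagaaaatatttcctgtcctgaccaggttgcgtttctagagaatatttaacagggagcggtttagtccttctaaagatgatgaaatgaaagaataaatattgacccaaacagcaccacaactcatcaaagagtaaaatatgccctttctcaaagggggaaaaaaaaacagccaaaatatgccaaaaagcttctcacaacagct
Afp (chr5:90490464-90490763, plus strand): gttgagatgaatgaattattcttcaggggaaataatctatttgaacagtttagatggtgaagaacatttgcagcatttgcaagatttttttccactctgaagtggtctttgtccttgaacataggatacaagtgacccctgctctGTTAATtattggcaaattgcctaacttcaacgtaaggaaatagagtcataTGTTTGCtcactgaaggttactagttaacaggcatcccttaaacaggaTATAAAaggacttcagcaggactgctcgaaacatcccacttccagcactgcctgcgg
Apoa1 (chr9:46228380-46228679, plus strand): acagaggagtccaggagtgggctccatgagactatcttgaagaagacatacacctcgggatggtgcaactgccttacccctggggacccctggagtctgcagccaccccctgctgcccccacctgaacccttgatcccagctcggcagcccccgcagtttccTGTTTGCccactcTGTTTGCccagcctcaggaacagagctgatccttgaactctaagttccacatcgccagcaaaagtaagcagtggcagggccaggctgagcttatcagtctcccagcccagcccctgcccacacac
Cer1 (chr4:82885102-82885401, minus strand): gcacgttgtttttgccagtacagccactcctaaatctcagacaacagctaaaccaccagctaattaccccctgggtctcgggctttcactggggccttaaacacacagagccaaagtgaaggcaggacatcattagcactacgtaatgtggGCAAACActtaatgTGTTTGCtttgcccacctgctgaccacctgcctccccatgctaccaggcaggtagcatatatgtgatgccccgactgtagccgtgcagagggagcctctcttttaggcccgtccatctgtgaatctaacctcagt
Counted from the start of the gene, the first base of the match lies at -241 in Rbp4, -55 in Afp, -88 and -75 in Apoa1 and -99 and -85 in Cer1. Rbp4 has 2 windows with different starts, and the other, at chr19:38124762-38125061, lacks the letters and holds TATAAA at -28. In Rbp4 and in the first match of Cer1 the letters read on the other strand. The matches describe these windows and are not known sites. The transcripts of the family were not called: Foxa2 stood at +0.03 ± 0.0589, Foxa1 at +0.26 ± 0.153 and Foxa3 at -0.20 ± 0.0822. Other letters were searched in the same way. The HNF1 core GTTAAT is in 7.1% of all windows (8.24% of genes with a window) and in 1 of the 5 products. An HNF4 site spelled CAAAGTCCA is in 0.475% of windows (0.555% of genes) and in 0 of the 5. AGATAA, which zinc finger factors of endoderm can bind, is in 11.2% of windows (12.7% of genes) and in 0 of the 5. The TATA box letters TATAAA are in 13.6% of windows (15.7% of genes) and in 3 of the 5.

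Signals that pattern the epiblast moved in both directions. Cer1, a secreted antagonist of Nodal, BMP and Wnt made by anterior visceral endoderm, read 8.82, 8.83 and 8.44 at day 4 and 9.99, 9.98 and 10.12 with DMSO. The DMSO arrays were all higher, by 1.33 ± 0.184, or 2.51-fold (adjusted p = 0.000905), and between 1.20 and 1.40 with any 1 of the 6 arrays left out. Lhx1, a homeodomain factor of the same tissue and of the early streak, went from 8.80, 8.88 and 8.45 to 9.18, 9.14 and 9.28, without overlap. That rise of 0.49 ± 0.0994 (adjusted p = 0.0288) was kept in 1 of the 6 fits that leave out an array, with adjusted p up to 0.166. Of the 17 measured endoderm factors Cer1 and Lhx1 were the 2 called, and the median was 0.082. At an unadjusted p under 0.05 that list held 4 higher and 1 lower, against 3.1% and 5.01% of all genes. The lineage factors Gata6 (+0.05 ± 0.0546), Gata4 (+0.17 ± 0.0736), Sox17 (+0.15 ± 0.115) and Foxa2 (+0.03 ± 0.0589) were not called, Gata4 and Foxa2 being chosen after their values were seen.

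At an unadjusted p under 0.05 the 18 measured Nodal pathway genes gave 1 higher and 2 lower, against 3.1% and 5.01% of all genes. Of these 18 genes 1 was called higher and 1 lower, with a median of -0.013. Besides Cer1 this was Smad7, an inhibitor of signalling by the TGF-beta family, at -0.29 ± 0.0624 (adjusted p = 0.0364). Smad7 was called in 0 of the 6 fits that leave out an array (adjusted p up to 0.201). The list held 0 lower calls after quantile normalization, median centring and SD scaling as well. Nodal itself stood at -0.12 ± 0.0666 and its antagonist Lefty1 at -0.18 ± 0.0731, neither of them called. Of 26 genes of the BMP pathway 0 were called (limma; 2 higher and 2 lower at an unadjusted p under 0.05), with a median of -0.001. The widest values there were +0.31 ± 0.11 for the ligand Bmp5 and -0.31 ± 0.13 for the target Id3.

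Wnt genes were called in both directions, 2 higher and 1 lower of 30 measured, with a median of 0.058. At an unadjusted p under 0.05 there were 6 higher and 1 lower, against 3.1% and 5.01% of all genes. Frzb, a secreted antagonist that binds Wnt, went from 6.98, 6.88 and 6.93 to 7.65, 7.49 and 7.62, a rise of 0.66 ± 0.136 (adjusted p = 0.0308). Lef1, a DNA-binding partner of beta-catenin, went from 9.85, 9.91 and 9.88 to 10.27, 10.29 and 10.40, a rise of 0.44 ± 0.0588 (adjusted p = 0.000692). Dkk1, an antagonist that binds the Wnt co-receptor, went the other way, from 11.59, 11.58 and 11.52 to 11.11, 11.18 and 11.20, a fall of -0.40 ± 0.086 (adjusted p = 0.04). The arrays were apart in all 3 genes. The Lef1 call was kept with any array left out, while those of Frzb and Dkk1 were each lost in all 6 such fits, with adjusted p up to 0.172 and 0.211. Axin2, a standard target of the pathway, stood at -0.22, not called, and was chosen after its value was seen.

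**Figure D2:**
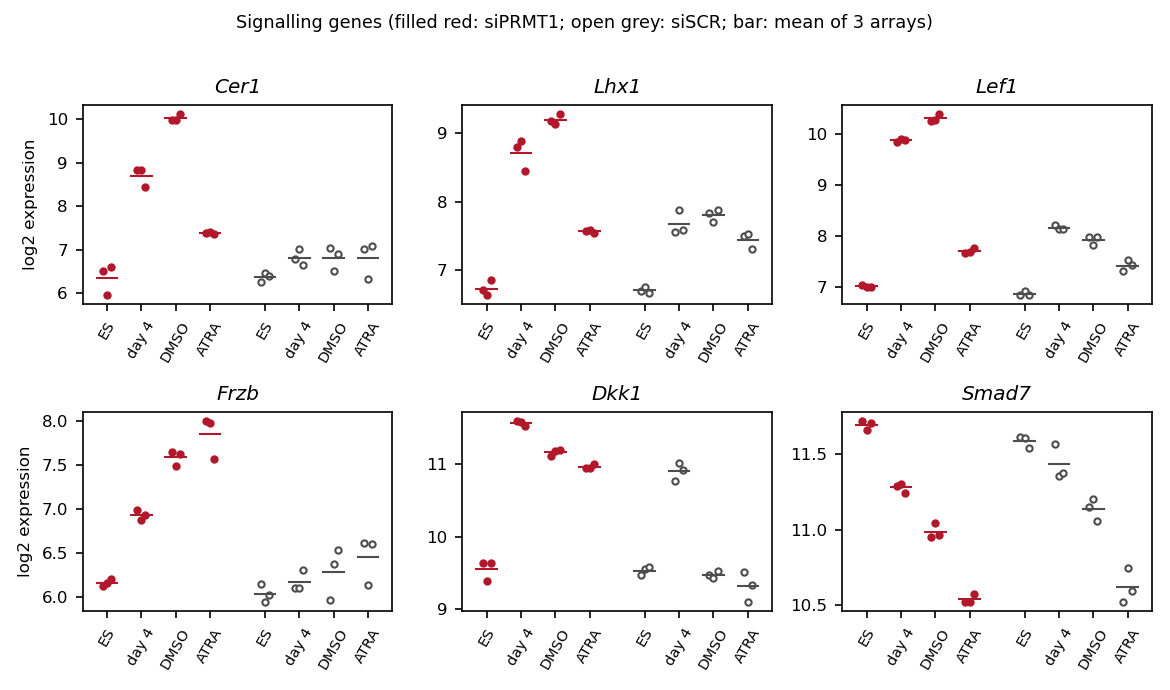
Log2 expression of 6 signalling genes on all 24 arrays, by state; filled points are siPRMT1, open points siSCR, and the bar is the mean of 3 arrays. In siPRMT1 Cer1, Lhx1, Lef1 and Frzb are higher with DMSO than at day 4 and Dkk1 and Smad7 lower, and Cer1, Lhx1 and Lef1 are below their day 4 level with ATRA.

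Genes of the primed epiblast, the state that follows naive pluripotency, were higher as far as they were called. Of 16 measured 2 rose and 0 fell (8 and 0 at an unadjusted p under 0.05 in limma, against 3.1% and 5.01% of all genes), and the median of 0.183 was close to that of the visceral endoderm list. Pim2, a survival kinase, read 10.27, 10.38 and 10.24 at day 4 and 10.76, 10.79 and 10.83 with DMSO, a rise of 0.49 ± 0.0756 (adjusted p = 0.00268). The other called member was Lef1, and both calls were kept with any 1 of the 6 arrays left out. Otx2 (+0.31 ± 0.115), Fgf5 (+0.31 ± 0.11) and Pou3f1 (+0.30 ± 0.0851) had their DMSO arrays above their day 4 arrays but were not called, with adjusted p of 0.391, 0.379 and 0.167. The list averaged 9.929 to 10.022 at day 4 and 10.166 to 10.205 with DMSO.

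Naive pluripotency genes gave a single call, where 0.306% of all genes were called higher and 0.155% lower. Of 17 naive pluripotency genes 1 was lower and 0 higher (limma; 4 and 0 at an unadjusted p under 0.05), with a median of -0.065. Tbx3, a T-box factor that sustains the naive state, went from 11.46, 11.53 and 11.39 to 11.11, 11.06 and 11.12, without overlap, a fall of -0.37 ± 0.0641 (adjusted p = 0.00945). It was called in 3 of the 6 fits that leave out an array, with adjusted p up to 0.0803. Prdm14 (-0.28 ± 0.0688) and Nr5a2 (-0.24 ± 0.055) came near the threshold, at adjusted p of 0.0889 and 0.0617. Of 14 core pluripotency genes 0 were called (1 higher and 1 lower at an unadjusted p under 0.05). Pou5f1 stood at -0.03 ± 0.0413, Sox2 at -0.12 ± 0.0733 and Nanog at -0.18 ± 0.0506 (adjusted p = 0.157).

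In the list of primitive streak and mesendoderm genes 2 of 24 measured were higher and 0 lower (3 and 1 at an unadjusted p under 0.05), with a median of 0.089. They were Lhx1 and Cyp26a1, the enzyme that degrades retinoic acid, which went from 10.44, 10.39 and 10.35 to 10.86, 10.84 and 10.93. The arrays of Cyp26a1 were apart and it rose by 0.48 ± 0.0976 (adjusted p = 0.0282), yet it was called in 0 of the 6 fits that leave out an array. The defining genes Eomes (+0.08 ± 0.115) and Mixl1 (+0.06 ± 0.116) were not called. Cyp26a1 was also the 1 called gene of 25 retinoic acid targets, whose median was 0.033. These targets held 2 higher and 5 lower at an unadjusted p under 0.05, against 3.1% and 5.01% of all genes. Of 19 genes of the HoxA and HoxB clusters 0 were called (1 and 1 at an unadjusted p under 0.05).

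Of 25 genes of epithelia and of the epithelial-mesenchymal transition 3 were called higher and 1 lower, with a median of 0.078. Over all genes 0.306% were called higher and 0.155% lower. The calls were the epithelial genes Krt18 and Esrp1 and the E-cadherin repressors Snai1 and Zeb1. Krt18, a keratin of simple epithelia, went from 9.95, 9.85 and 9.98 to 10.35, 10.43 and 10.34, a rise of 0.44 ± 0.0695 (adjusted p = 0.00335) that was kept with any array left out. Esrp1, an epithelial splicing factor, rose by 0.48 ± 0.0932 (adjusted p = 0.0232), while Zeb1, a repressor of E-cadherin named because it was called, fell by 0.30 on the log2 scale (SE 0.053, adjusted p = 0.0114). Snai1, another repressor of E-cadherin, did not go with Zeb1: it rose by 0.46 ± 0.0868 (adjusted p = 0.0185). Esrp1 was called in 0, Zeb1 in 2 and Snai1 in 1 of the 6 fits that leave out an array. Krt18 and Snai1 were also the 2 called members, both higher, of 20 genes of parietal endoderm and basement membrane. That list had a median of 0.153 and 11 members higher at an unadjusted p under 0.05, with the receptor gene Pth1r at +0.38 ± 0.112 and the collagen gene Col4a2 at +0.23 ± 0.0676.

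Genes of hypoxia and glycolysis, many of them induced by low oxygen, were called in one direction. Of 35 measured members 7 were higher and 0 lower (16 and 0 at an unadjusted p under 0.05 in limma, against 3.1% and 5.01% of all genes), with a median of 0.108. Adm, the peptide hormone adrenomedullin, went from 7.67, 7.63 and 7.57 to 8.38, 8.43 and 8.45. Its DMSO arrays were well apart from the day 4 arrays, a rise of 0.80 ± 0.115, or 1.74-fold (adjusted p = 0.00142). Bhlhe40, a transcriptional repressor shared with the circadian clock, went from 8.95, 8.96 and 8.99 to 9.55, 9.59 and 9.50, a rise of 0.58 ± 0.105 (adjusted p = 0.0114).

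Ddit4, an inhibitor of mTORC1, went from 10.60, 10.67 and 10.43 to 10.98, 11.01 and 10.94, a rise of 0.41 ± 0.0631 (adjusted p = 0.0027). Egln3, a prolyl hydroxylase that acts on the hypoxia-inducible factors, went from 11.54, 11.58 and 11.49 to 11.88, 11.91 and 11.94, a rise of 0.37 ± 0.0586 (adjusted p = 0.00369). Both were apart in their arrays. Bnip3, a mitophagy receptor, rose by 0.29 ± 0.0618, and its other probe set gave +0.346. The glycolytic enzymes Aldoc and Tpi1, named because they were called, rose by 0.26 ± 0.0578 and 0.25 ± 0.0495. The calls of Adm, Ddit4 and Egln3 were kept with any 1 of the 6 arrays left out, that of Bhlhe40 in 1 of the 6 such fits and those of Bnip3, Aldoc and Tpi1 in 0, with adjusted p up to 0.189, 0.196 and 0.165. The list thus held 4 called members without DMSO replicate 3 and 3 without any of the other 5 arrays. The glucose transporter Slc2a1 at +0.08, Vegfa at +0.09 and the carbonic anhydrase Car9 at -0.0057 were not called, a choice made after their values were seen. Ramp2, which turns the calcitonin-like receptor into an adrenomedullin receptor and was named after its value was seen, rose by 0.41 ± 0.0747 (adjusted p = 0.0125) and was called in 3 of the 6 fits that leave out an array.

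**Figure D3:**
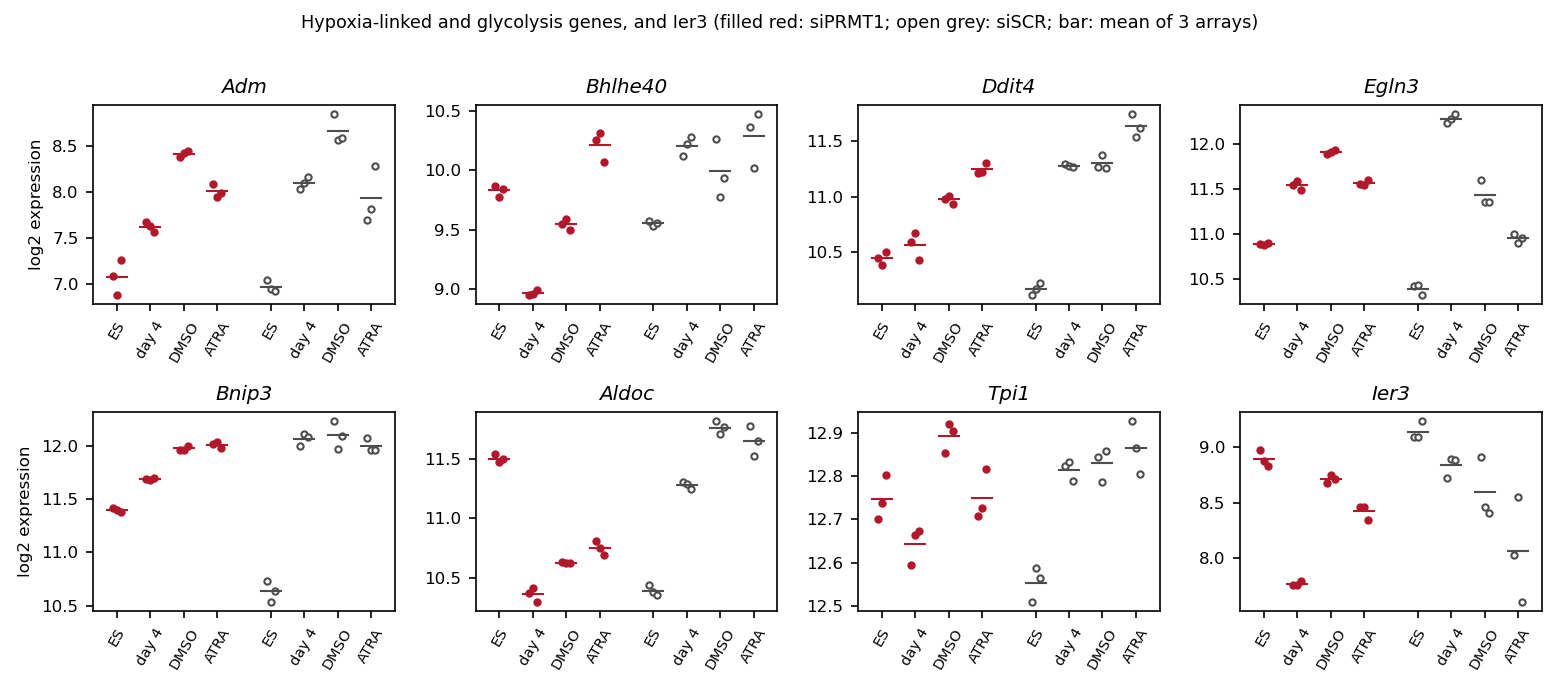
Log2 expression of 7 hypoxia-linked or glycolytic genes and of Ier3 on all 24 arrays, by state; filled points are siPRMT1, open points siSCR, and the bar is the mean of 3 arrays. In siPRMT1 the DMSO points lie above the day 4 points in all 8 panels, and all 92 called genes had their arrays apart. The axis of each panel has its own range.

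The core letters of a hypoxia response element, ACGTG on either strand, are in 19.6% of all windows and 21.8% of all genes with a window. They are in 4 of the 6 called hypoxia genes that have a window (Ddit4, Egln3, Bnip3 and Aldoc). Adm, the largest rise of the list, and Tpi1 lack them. The letters are in 19 of the 51 genes called higher (37.3%) and in 4 of the 22 called lower (18.2%). The windows of Egln3 and Bnip3 show a single and a palindromic match in capitals, where in Bnip3 the matches of both strands overlap.
Egln3 (chr12:54203825-54204124, minus strand): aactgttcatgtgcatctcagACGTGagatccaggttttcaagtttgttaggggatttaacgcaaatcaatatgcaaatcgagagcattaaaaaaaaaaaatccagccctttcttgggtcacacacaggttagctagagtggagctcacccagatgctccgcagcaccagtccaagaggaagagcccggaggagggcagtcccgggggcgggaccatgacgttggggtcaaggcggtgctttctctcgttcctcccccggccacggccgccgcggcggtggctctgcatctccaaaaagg
Bnip3 (chr7:138909457-138909756, minus strand): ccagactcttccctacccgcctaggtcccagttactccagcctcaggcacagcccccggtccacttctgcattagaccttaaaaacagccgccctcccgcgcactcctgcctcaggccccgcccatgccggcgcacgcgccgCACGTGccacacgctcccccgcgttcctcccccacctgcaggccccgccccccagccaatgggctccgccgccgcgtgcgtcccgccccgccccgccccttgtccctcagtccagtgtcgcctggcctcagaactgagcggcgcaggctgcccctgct
The match starts at -229 in Egln3 and at -108 and -107 in Bnip3. As above, a match is a description of the letters.

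Growth factor feedback and immediate early genes had a shared leading member. Ier3, an immediate early gene that regulates survival, read 7.76, 7.76 and 7.80 at day 4 and 8.67, 8.75 and 8.72 with DMSO. The arrays of each group lay close together and the groups far apart, a rise of 0.94 ± 0.153, or 1.92-fold (adjusted p = 0.00475), kept with any array left out. Ier3 and Fgf15, a ligand of the FGF family at +0.39 ± 0.0824 (adjusted p = 0.0332), were the 2 called of 25 genes of FGF and ERK feedback, with a median of 0.024. That list held 5 higher and 3 lower at an unadjusted p under 0.05, against 3.1% and 5.01% of all genes. Of 23 immediate early genes Ier3 was higher and the stress factor Atf3 lower, at -0.35 ± 0.0768 (adjusted p = 0.0433), with a median of 0.025, and Egr1 stood at -0.25 ± 0.0918, not called. These 23 genes held 4 higher and 3 lower at an unadjusted p under 0.05. Fgf15 and Atf3 were called in 0 of the 6 fits that leave out an array.

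The other named rises belong to no common list. Prss12, a secreted serine protease, went from 8.91, 8.80 and 8.67 to 9.53, 9.42 and 9.53, a rise of 0.70 ± 0.0931 (adjusted p = 0.000605). Tmprss2, a serine protease of the cell surface, went from 8.84, 8.81 and 8.79 to 9.45, 9.49 and 9.39, a rise of 0.63 ± 0.0921 (adjusted p = 0.0015). Tox3, of the HMG-box proteins, rose by 0.65 ± 0.0951 and Sema6a, a transmembrane semaphorin, by 0.58 ± 0.0673. The arrays were apart in all 4, and all 4 calls were kept with any array left out.

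Further called rises were named after their values were seen. Lgals3bp, a secreted glycoprotein, rose by 0.51 ± 0.0602, Adgrg1, an adhesion receptor, by 0.48 ± 0.0684 and Tgfbr3, the betaglycan co-receptor, by 0.42 ± 0.0642. Igfbp2, which binds insulin-like growth factors, rose by 0.43 ± 0.0572, and Fads2, a fatty acid desaturase, by 0.29 ± 0.0466. These 5 were called with any 1 of the 6 arrays left out. Clps (the cofactor of pancreatic lipase), Abcc2 (a canalicular export pump), Mogat2 (an enzyme of triglyceride synthesis), Enpep (a brush border peptidase) and Apoe rose by 0.27 to 0.51, and were called in 0 to 2 of these 6 fits.

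The falls were smaller than the rises. Banp, which binds unmethylated CGCG-containing promoters, read 11.15, 11.12 and 10.98 at day 4 and 10.47, 10.50 and 10.42 with DMSO. The groups were apart, with a fall of -0.62 ± 0.0695 (adjusted p = 0.000151), the only called fall of at least 1.5-fold. Ppp1r10, a targeting subunit of protein phosphatase 1 in the nucleus, went from 11.55, 11.62 and 11.58 to 11.23, 11.13 and 11.15, a fall of -0.41 ± 0.0509 (adjusted p = 0.000386). Epha4, a receptor of ephrins, went from 10.99, 10.99 and 10.95 to 10.61, 10.55 and 10.63, a fall of -0.39 ± 0.0431 (adjusted p = 0.000151). Banp, Ppp1r10 and Epha4 were the 3 falls called with any 1 of the 6 arrays left out.

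Cyp11a1, the enzyme that opens steroid hormone synthesis, went from 9.94, 9.94 and 9.84 to 9.50, 9.43 and 9.50, a fall of -0.43 ± 0.0917 (adjusted p = 0.0355). Pla2g4c, a phospholipase A2, stood at -0.49 ± 0.109, Msc, a repressor of the helix-loop-helix family, at -0.42 ± 0.0855, and Anxa3, an annexin, at -0.38 ± 0.0744. Osmr, the oncostatin M receptor subunit (-0.38 ± 0.085), the flagellar tektin gene Tekt5 (-0.35 ± 0.0766), Fam20a (-0.32 ± 0.0711), the zinc finger gene Zfp521 (-0.32 ± 0.0661) and the splicing factor gene Rbm5 (-0.31 ± 0.0548) completed the named falls. All were called with their arrays apart. In the fits that leave out an array Rbm5 was called in 4 of 6, Anxa3 in 1 and Cyp11a1, Pla2g4c, Msc, Osmr, Tekt5, Fam20a and Zfp521 in 0, with adjusted p up to 0.321 (Osmr).

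**Figure D4:**
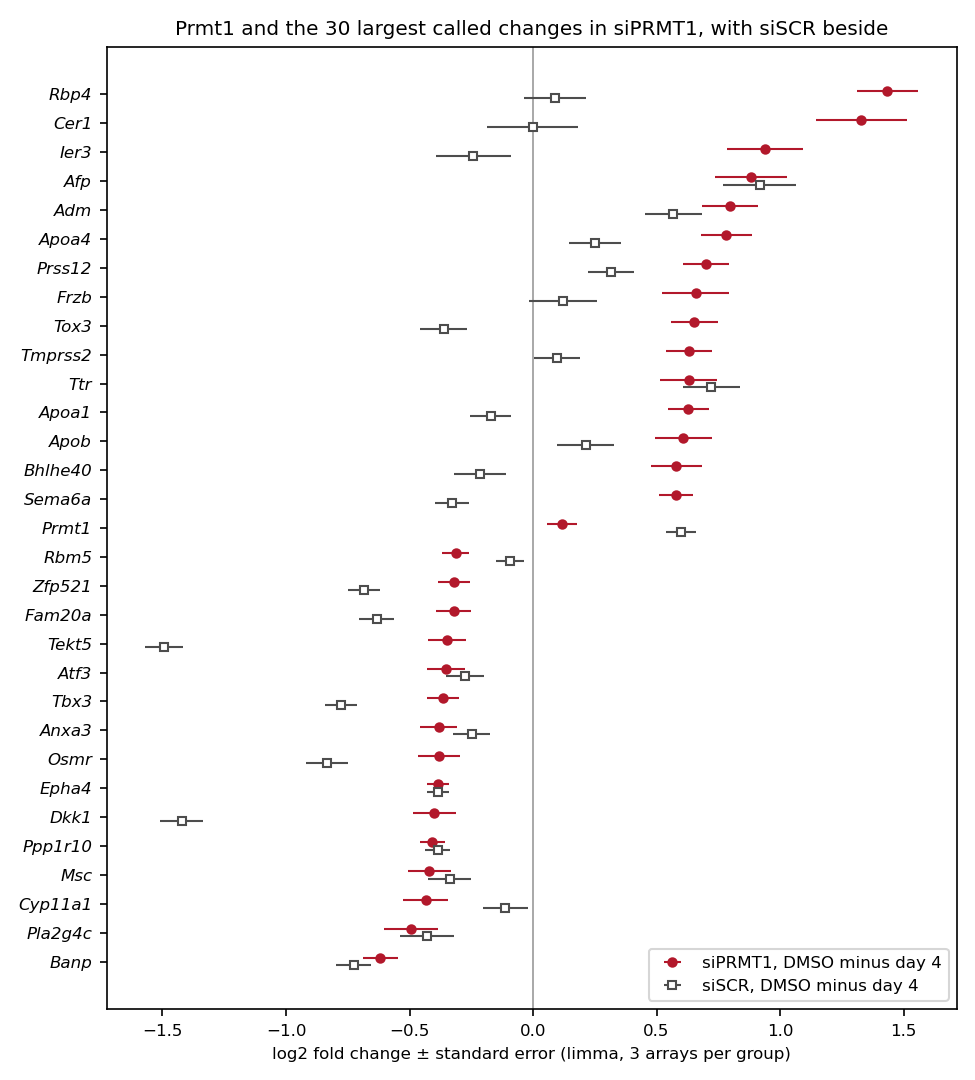
Log2 fold change, DMSO minus day 4, of Prmt1 and the 15 largest called rises and 15 largest called falls in siPRMT1 (filled), with the same genes in siSCR beside them (open); bars are standard errors of the limma fit. Rbp4 and Cer1 stand at 1.43 and 1.33 in siPRMT1 and at 0.09 and -0.0011 in siSCR, while Afp, Ttr, Banp, Epha4 and Ppp1r10 have close values in both lines.

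Stress and housekeeping programmes gave few calls, where 0.306% of all genes were called higher and 0.155% lower. In the integrated stress response Ddit4 was higher and Atf3 lower of 25, with a median of -0.034, and of 12 heat shock genes Hsph1 was lower at -0.25 ± 0.0483 (adjusted p = 0.0182). Hsph1 was called in 0 of the 6 fits that leave out an array, with adjusted p up to 0.122. Of 20 genes of the unfolded protein response 0 were called (limma; 0 higher and 3 lower at an unadjusted p under 0.05), yet 19 of 20 were below 0, with a median of -0.082 and values from -0.14 to +0.08. Over all genes 10133 of 19938 were below 0. The chaperone gene Hspa5 stood at -0.12 ± 0.0432 and Pdia4 at -0.14 ± 0.0594. In sterol synthesis only Insig1, a brake on the pathway, was called of 20 (+0.32 ± 0.0663), in fatty acid synthesis only Fads2 of 14, and among 25 interferon-stimulated genes only Irf1 (+0.28 ± 0.0574), whose other probe set gave +0.055. Insig1 and Irf1 were each called in 0 of the 6 fits that leave out an array, with adjusted p up to 0.158 and 0.179.

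Several lists held no called gene in the limma fit. Their counts at an unadjusted p under 0.05 stand beside 3.1% higher and 5.01% lower over all genes. Of 27 genes of G1 to S phase 0 were higher and 1 lower at that level, with a median of -0.019, and of 25 genes of G2 and M phase 0 and 0, with a median of -0.022. Neural ectoderm had 6 higher and 1 lower of 27, mesoderm with blood or vessel 3 and 0 of 32, trophectoderm 1 and 1 of 17, neurons 1 and 0 of 12, and fibroblasts or feeder cells 0 and 2 of 19. P53 targets had 0 and 1 of 19, NRF2 targets 4 and 0 of 21, apoptosis regulators 0 and 2 of 20, DNA methylation enzymes 2 and 1 of 11, 2-cell-like and germline genes 0 and 3 of 17, imprinted genes 4 and 2 of 20 and ribosomal proteins 3 and 0 of 18. Their medians ran from -0.065 for the 2-cell-like list to 0.074 for the imprinted list.

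**Figure D5:**
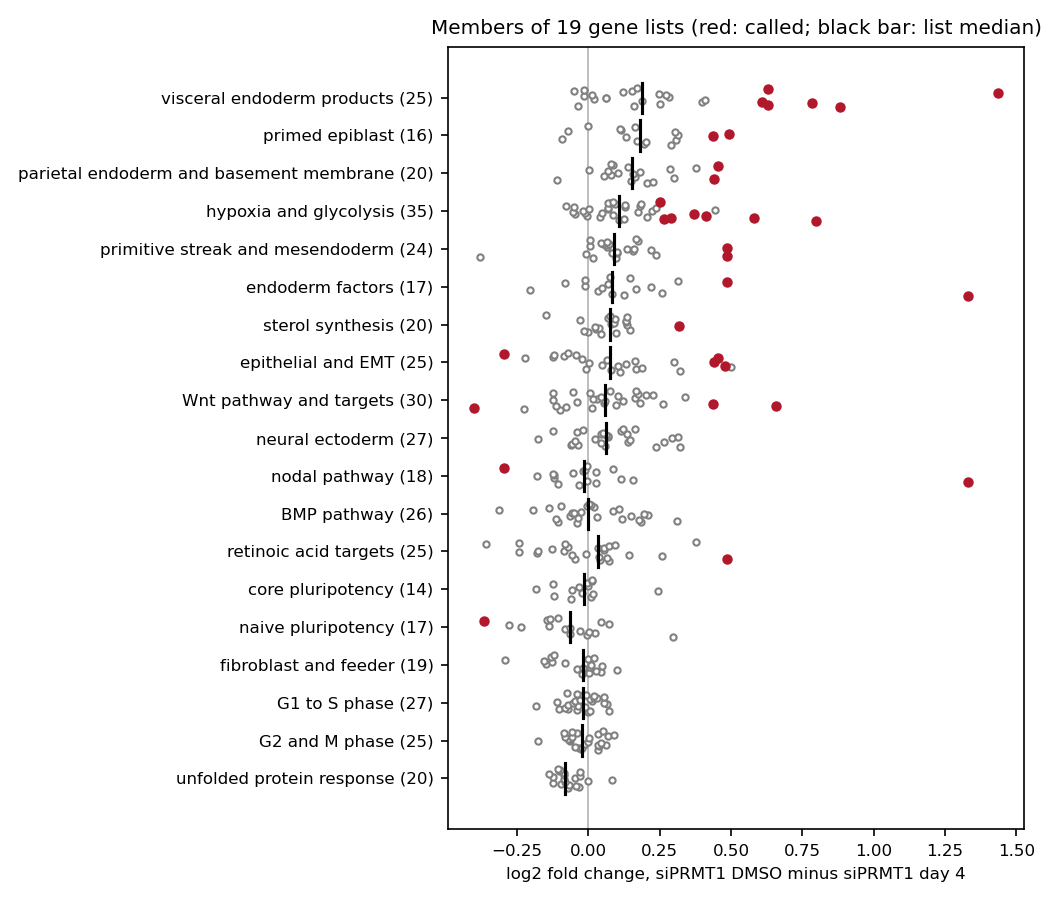
Log2 fold change, DMSO minus day 4 in siPRMT1, of each measured member of 19 gene lists, with the number of members in brackets; red points were called and the black bar is the list median. The visceral endoderm list has 6 called members and a median of 0.189, hypoxia and glycolysis 7 and 0.108, and the 20 genes of the unfolded protein response lie between -0.14 and +0.08 with no call.

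The same contrast in the control line was far larger. In siSCR 12189 genes (61.1%) were called between DMSO and day 4, 1202 of them at least 2-fold, and the median size of a change was 0.312 against 0.0679 in siPRMT1. The DMSO arrays of siSCR stood apart from all siPRMT1 arrays and from siSCR at day 4, with correlations of 0.9671 to 0.9731 between its day 4 and DMSO arrays and 0.9932 to 0.9936 among the DMSO arrays. With arrays centred on their medians 62% of the siSCR calls were higher, against 50.4% as deposited. The labels give no batch, so the treatment and any other difference between these arrays cannot be told apart. The difference between the lines was called for 8889 genes (44.6%), a share that the members must be read against.

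Of the 61 rises of siPRMT1, 19 were also called higher in siSCR (30.8% of all genes were), 15 lower (30.3%) and 27 not called, and the siSCR median was 0.057. Of the 31 falls, 23 were called lower in siSCR and 3 higher, and the median was -0.384 against -0.314 in siPRMT1. The difference between the lines was called for 44 of the 61 rises and 18 of the 31 falls. These genes were picked by their siPRMT1 change, which is itself part of that difference. The counts and the values below are therefore no independent test of a difference between the lines. Rbp4 stood at +0.09 in siSCR and differed by 1.35 ± 0.176 (adjusted p = 2.31e-06), Cer1 at -0.0011 and differed by 1.33 ± 0.26 (adjusted p = 0.000266). Ier3 was -0.24 in siSCR, with a difference of 1.18 ± 0.216, and Apoa1 -0.17, with a difference of 0.80 ± 0.116.

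For other members the difference between the lines was not called, which does not show that they changed alike. Afp rose by 0.92 in siSCR (difference -0.035 ± 0.206, adjusted p = 0.908) and Ttr by 0.72 (difference -0.09 ± 0.163, adjusted p = 0.685). Adm rose by 0.57 (difference 0.23 ± 0.162, adjusted p = 0.268). Among the falls Banp was -0.73 in siSCR (difference 0.11 ± 0.0983), Epha4 -0.38 (difference -0.001 ± 0.061), Ppp1r10 -0.39 (difference -0.02 ± 0.072) and Smad7 -0.30 (difference 0.0021 ± 0.0883). Dkk1 is not one of these members. It fell in siSCR by 1.42, more than in siPRMT1, and its difference of 1.02 ± 0.122 was called. Levels differed as well: Cer1 averaged 6.82 in siSCR at day 4 against 8.70 in siPRMT1, and Apoa1 9.16 against 10.87.

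The embryoid bodies given ATRA passed through the same 12 h, and their contrast with day 4 shares the 3 day 4 arrays, so values are only set side by side. ATRA minus day 4 called 2975 genes (14.9%). Rbp4 stood at +1.08 with ATRA and +1.43 with DMSO, Apoa1 at +0.54 and +0.63, Afp at +0.47 and +0.88, Ttr at +0.07 and +0.63, and Adm at +0.39 and +0.80. Ppp1r10 was at -0.38 and -0.41, Banp at -0.51 and -0.62 and Epha4 at -0.55 and -0.39.

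Several genes of the epiblast and its signals had opposite signs in these contrasts. Cer1 was at -1.31 with ATRA and +1.33 with DMSO, Lef1 at -2.17 and +0.44, Lhx1 at -1.14 and +0.49, Pim2 at -1.10 and +0.49 and Fgf15 at -1.12 and +0.39. Cyp11a1 was at +0.82 and -0.43. Cyp26a1 was at +1.99 with ATRA and +0.48 with DMSO, and Bhlhe40 at +1.24 and +0.58.

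The step from undifferentiated cells to day 4, which also shares the day 4 arrays and called 8252 genes (41.4%), gives the scale of these values. Ttr had risen by 4.31 up to day 4 and stood 0.63 higher with DMSO, Apoa1 by 3.06 and 0.63, Apob by 2.44 and 0.61, Cer1 by 2.34 and 1.33 and Lef1 by 2.87 and 0.44. For Rbp4 the order of sizes was the other way, with 0.36 up to day 4 and 1.43 from day 4 to DMSO, and for Afp the values were 0.69 and 0.88. Ier3 (-1.12 up to day 4) and Bhlhe40 (-0.86) had fallen before and were higher with DMSO.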

How the data were processed

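RNA (300 ng per sample) was hybridised to Affymetrix whole-transcript mouse arrays, per the labels' protocols. The deposited table holds the authors' log2 expression values per probe set; their summarisation and normalization are not given in the sources used here, and the log2 scale was inferred from the range of 2.14 to 14.5 (array medians 7.47 to 7.67). Of 35556 probe sets, 21789 had 1 gene symbol in GEO's platform annotation (1621 several, 12146 none), and the brightest set over 24 arrays stood for each of 19938 genes. Array number, 3 per group, limits the precision.

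Group means of all 8 groups were fitted with limma 3.58.1 (R 4.3.3, lmFit and eBayes, 16 residual degrees of freedom), with Benjamini-Hochberg adjustment over all genes and a threshold of 0.05. The script was tested on simulated data. Named genes were Prmt1, up to 15 called rises and 15 called falls by size, up to 5 each way for the difference between the lines, and up to 6 members or the defining members of 37 gene lists; exceptions are marked. The 15 rises and 15 falls were taken only from called genes whose DMSO and day 4 arrays were apart. Predicted genes, clones, microRNAs, small nucleolar RNAs, receptor and antibody segment genes were passed over by the form of their symbols. Such genes under other symbols, for example accession-like ones, were not removed. The members and lists were chosen with earlier results of these data known. Replicate numbers did not pair the arrays: same-numbered day 4 and DMSO arrays of siPRMT1 correlated at 0.001, 0.051 and -0.049 after removing group means. Alternatives covered the samples fitted, scaling, dim genes, probe sets, variance model, array weights, fold thresholds and left-out arrays.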

Additional observations from a re-analysis of the deposited data

Results flagged for a closer look

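The change from day 4 to DMSO differed between siPRMT1 and siSCR in 8889 genes by the interaction term of the limma fit. The values here are log2 differences, siPRMT1 minus siSCR, each with an adjusted p under 0.05. The named rises and falls were picked by their siPRMT1 change, which is part of the difference. Among the named rises the difference was 1.35 for Rbp4, 1.33 for Cer1, 1.18 for Ier3, 1.01 for Tox3, 0.91 for Sema6a, 0.8 for Apoa1, 0.79 for Bhlhe40, 0.54 for Frzb, 0.53 for Apoa4, 0.53 for Tmprss2 and 0.39 for Prss12. Among the named falls it was 1.14 for Tekt5, 1.02 for Dkk1, 0.45 for Osmr, 0.41 for Tbx3, 0.36 for Zfp521 and 0.31 for Fam20a, which fell further in siSCR, and -0.32 for Cyp11a1 and -0.22 for Rbm5, which fell further in siPRMT1.

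The largest differences lay in genes that were not called in siPRMT1 and moved in siSCR. They were 4.27 for Terc, the RNA component of telomerase, 3.12 for Uqcc2, 2.75 for DQ267102, 2.47 for Smim8 and 2.46 for Pbx3 in one direction. In the other they were -5.46 for Usp17ld, -2.7 for Micos10, -2.46 for AY036118, -2.43 for Pcgf1 and -2.35 for Rida. The siSCR DMSO arrays stand apart as a group, and whether that bears on these differences was not tested. Some siSCR shifts are shared with ATRA and others are not, as 2 genes chosen after their values were seen show. Dcx averaged 5.64 at day 4, 6.27 with DMSO and 6.28 with ATRA in siSCR. Zfp42 averaged 11.59, 12.21 and 11.69 in the same order. Both treated siSCR groups scattered more, with a median SD over genes of 0.118 with DMSO and 0.137 with ATRA, against 0.0847 at day 4.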

How the results depend on the processing

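None of the 15 largest called rises and 15 largest called falls changed direction. They were taken from genes whose DMSO and day 4 arrays were apart, so leaving out an array could not reverse them. The kept direction is therefore no independent support. Of 510 combinations of these 30 genes with 17 alternatives, 388 kept the call and 122 lost it with the same direction, and 13 genes kept it throughout: Rbp4, Cer1, Ier3, Adm, Apoa4, Prss12, Tox3, Tmprss2, Apoa1, Sema6a, Banp, Ppp1r10 and Epha4. The count of 92 calls (61 higher, 31 lower) moved with several settings. It was 286 (146 higher, 140 lower) when the 6 DMSO and ATRA arrays of siSCR were dropped, 225 (127 and 98) with the 12 siPRMT1 arrays only, 145 (57 lower) with trend and robust variance, and 2536 (802 and 1734) with array weights, where ATRA minus day 4 gave 7319. The lower calls were 20 after quantile normalization, 15 with arrays centred on their medians, 58 without the dimmest 25% of genes and 6 of 56 with arrays also scaled to one SD. A fit of the 2 groups alone called 121 genes, 63 of them among the 92.

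At 1.5-fold or more the calls were 14 (13 higher, 1 lower), with 4349 in siSCR, 4246 for the difference between lines, 537 for ATRA and 1958 for day 4 minus undifferentiated. At 2-fold or more they were 2 (2 higher, 0 lower), 1202, 1169, 136 and 653. With each array of the groups compared left out in turn the calls were 29 to 36 (23 to 31 higher, 4 to 11 lower). In the same way they were 10802 to 12144 in siSCR, 7944 to 8883 for the difference, 1997 to 2487 for ATRA and 6852 to 7795 for day 4 minus undifferentiated. Leaving out 1 array of siSCR at day 4 or with DMSO, or of siPRMT1 with ATRA or undifferentiated, gave 72 to 109 siPRMT1 calls. Fewer arrays are fitted in all these fits, and for the other changes the cause was not tested. With the replicate block 92 genes were called (60 higher, 32 lower), 86 of them shared, and the counts were 12220, 8959, 3019 and 8253 in the same order of comparisons.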

Other observations

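Limma fitted on the 12 siPRMT1 arrays alone called 130 of 19938 genes that the fit of 24 arrays did not, 65 higher and 65 lower with DMSO. Members of the gene lists among them numbered 21, 14 higher and 7 lower, and all 21 are named here. Their adjusted p lay under 0.05 with 12 arrays and above it with 24. The rises were Ndufa4l2, a mitochondrial protein gene induced by hypoxia, at +0.44, the interferon-stimulated gene Oasl2 at +0.43, the plasma apolipoprotein gene Apom at +0.40, the receptor gene Pth1r at +0.38, Wt1 at +0.38, the neuronal gene Stmn2 at +0.34, the cadherin gene Cdh2 at +0.32 and the fibrinogen chain gene Fgb at +0.28. Hmox1 (heme oxygenase) and the metallothionein gene Mt1 stood at +0.27 each, the phosphatase gene Dusp1 and the pluripotency gene Lin28a at +0.25 and +0.24, the Notch ligand gene Dll1 at +0.24 and Me1 (malic enzyme) at +0.19. The falls were S100a4 at -0.29, the naive pluripotency genes Prdm14 at -0.28 and Nr5a2 at -0.24, Chac1, a target of the integrated stress response, at -0.25, Spred1 at -0.22, Perp at -0.21 and Tbx20 at -0.19. Of the pluripotency genes, Lin28a of the core list was thus higher, and Prdm14 and Nr5a2 of the naive list were lower.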
